A study of Homo sapiens with 6 samples.

Results

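Genes of arachidonic acid release and eicosanoid metabolism were followed in 6 RNA sequencing libraries of the 83 cell line, 3 from control cells and 3 from cells that overexpress ApoD. The submitters describe 83 as a SACC cell, an abbreviation usually read as salivary adenoid cystic carcinoma. The 42 genes were listed by name and role, as phospholipases, prostanoid enzymes, lipoxygenases, cytochromes P450 with epoxide hydrolases, and receptors with a transporter. Of these 40 had a row among the 21676 gene symbols of the count table, and PLA2G2A and PTGER3 had none. The labels name no vector, promoter or clone for the overexpression, and do not say what the control cells received. They number the libraries 1 to 3 in each group without saying that these came from separate cultures, so the p-values below measure the spread between libraries, which may be technical. A level in cultured cells read in bulk cannot tell fewer expressing cells from less RNA per cell.

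Arachidonic acid is held in membrane phospholipids until a phospholipase A2 releases it. Cyclooxygenases turn it into prostaglandin H2, from which separate synthases make prostaglandin E2, prostacyclin, prostaglandin D2 and thromboxane. Lipoxygenases turn it into leukotrienes and other hydroxy acids, and cytochromes P450 into epoxides and further hydroxy acids. In epithelia these lipids act close to where they are made, through G protein-coupled receptors, and are then oxidised or hydrolysed. ApoD is a lipocalin that carries arachidonic acid in its binding pocket.

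Libraries held 37542568 to 40416964 counts. Symbols with at least 1 count numbered 18591 to 18685 in controls and 17378 to 17789 with ApoD overexpression, so the groups did not overlap in this respect. APOD had 9, 8 and 2 counts in controls and 628, 528 and 625 with ApoD overexpression, in the direction of the labels. All 8 epithelial markers were present, with summed levels of 3010 to 4066 CPM (counts per 1000000, scaled as described under the processing) in controls and 3544 to 4048 CPM with ApoD overexpression. Of those 8, KRT7 was higher and EPCAM, CDH1, KRT19 and KRT14 were lower at an edgeR adjusted p under 0.05.

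Markers of other cell types were also read, since several eicosanoid enzymes are best known from leukocytes, platelets and vessels. CD3E, MS4A1 and TYROBP of the 12 leukocyte markers had no row, and PTPRC, which encodes the pan-leukocyte protein CD45, had 1, 12 and 0 counts in controls and 0 in each ApoD overexpression library. The 9 present summed to 22.4 to 37.2 CPM in controls and 40.8 to 43.0 CPM with ApoD overexpression, mostly from CD68, the only 1 called (higher). The 3 of 6 mast cell and platelet markers present summed to 0.372 to 1.04 against 0.0261 to 0.355 CPM, and ITGA2B was called lower. For 6 of 7 fibroblast markers the sums were 26.9 to 32.6 against 9.85 to 13.8 CPM, with COL1A1 and COL3A1 called lower and COL1A2, DCN and LUM at 0 or 1 count per group. For 3 of 4 endothelial markers they were 8.0 to 13.3 against 1.35 to 2.30 CPM, and PECAM1, CDH5 and VWF were all called lower. The part of these markers in the results below was not tested.

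Prostaglandin breakdown (HPGD), both cyclooxygenases (PTGS1, PTGS2), ALOX5, the leukotriene hydroxylase CYP4F3, its relative CYP4F12 and the epoxide hydrolases fell. The prostaglandin E synthases PTGES2 and PTGES3, the prostaglandin E2 receptor PTGER4 and the skin-type lipoxygenase ALOXE3 rose. The call of ALOXE3 held under only 6 of the 13 alternative settings that gave it a value. Of 31 members that passed the low-count filter, 19 were lower and 4 higher at an edgeR adjusted p under 0.05, and 8 did not pass. Among all 14629 genes tested, 48.8% were called, 24.2% higher and 24.6% lower. The median log2 fold change, always ApoD overexpression over control here, was −0.73 over the 31 members and −0.02 over all genes tested. Levels did not overlap between the groups for 25 of the 31, against 58.7% of all genes tested. Changes over 2-fold were called for 13 members that were lower and 2 that were higher, and for 1686 and 415 of all 14629 genes tested.

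The filter kept 6 members, PLA2G4B, PLA2G4C, PTGIS, PTGDS, ALOX5AP and ALOX12B, that reached the minimum count in 1 group or in some libraries only. PTGIS, ALOX5AP and ALOX12B, which reached it in every control only, are among the 13 members called lower by more than 2-fold. The 25 others reached the minimum in all 6 libraries, and 16 of them were lower and 4 higher, with a median of −0.65. No share was computed over all genes that reached that minimum in all 6. In this cell line the change of a gene varied with its abundance, so the members are set beside genes of like counts. Of 13 members with a mean of 100 to 1000 counts 11 were lower and 1 higher, with a median of −1.14, where 32.4% of 4435 genes were lower, 17.3% were higher and the median was −0.13. Of 7 members above that range 4 were lower and 2 higher, against 17.8% and 37.5% of 7070 genes. The medians there were −0.23 for the members and 0.14 for all genes. Of 11 members below the range 4 were lower and 1 higher, against 29.1% and 3.81% of 3124 genes. Here the median of the members, −0.30, was less negative than that of all genes, −0.60.

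**Figure D1:**
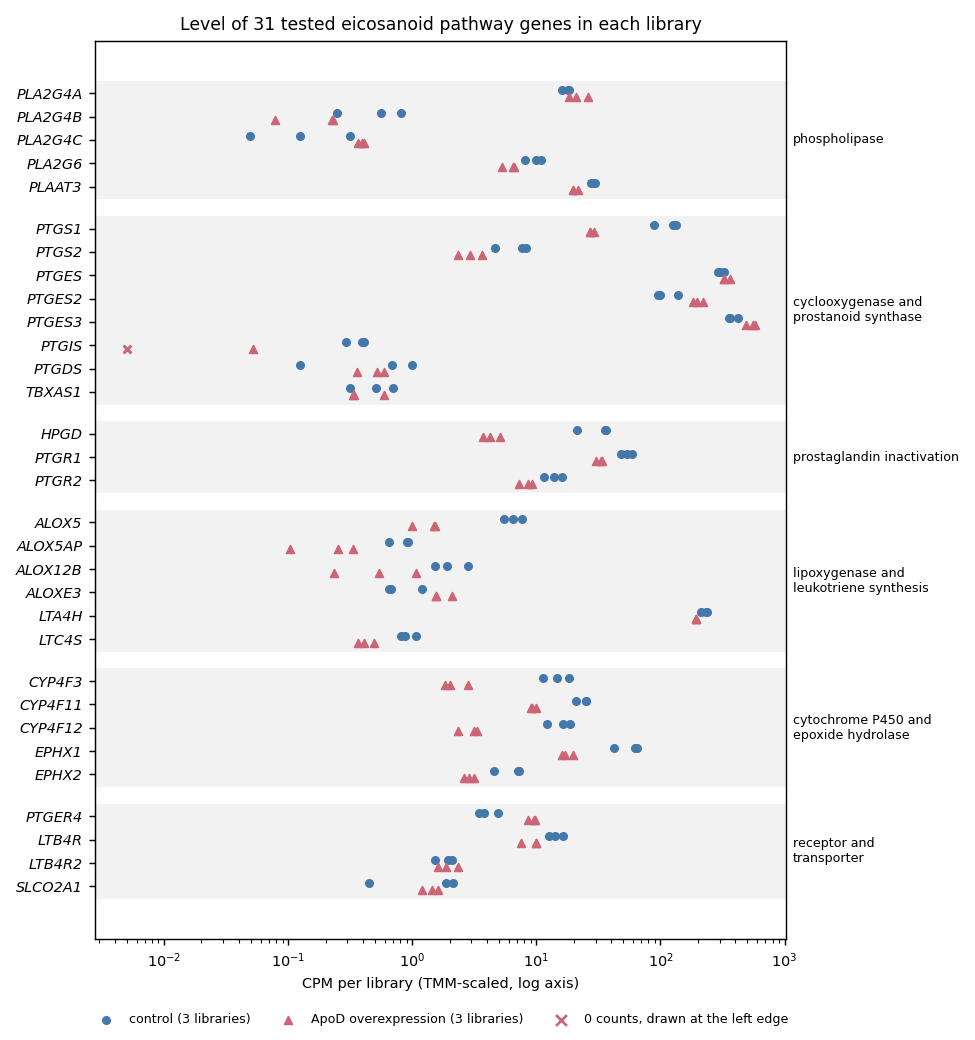
Level of each tested member in each library, in CPM on a log axis, with controls as circles and ApoD overexpression as triangles (a cross marks 0 counts). For HPGD, PTGS1, ALOX5 and CYP4F3 all 3 ApoD overexpression libraries sit well below all 3 controls, and for PTGES2, PTGES3 and PTGER4 they sit above them.

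Of 5 tested phospholipases among the members 2 were lower and none was higher, where 24.6% of all genes tested were lower and 24.2% higher. With only 5 genes this count does not set the phospholipases apart from all genes tested. PLAAT3, a calcium-independent phospholipase of the PLAAT family, had the highest level of the 6 measured phospholipases, 17.3 FPKM in controls (fragments per kilobase of gene and per 1000000, the scale used here to compare genes). Its counts were 1181, 1207 and 1151 in controls and 848, 695 and 759 with ApoD overexpression, a fall of 1.42-fold (log2 fold change −0.51 ± 0.10 SE, edgeR adjusted p = 0.00165). PLA2G6, a calcium-independent enzyme of membrane repair, had 328, 409 and 453 counts in controls and 260, 232 and 204 with ApoD overexpression. It fell by 0.65 ± 0.17 (SE) on the log2 scale, an edgeR adjusted p of 0.00731. In both genes every ApoD overexpression library lay below every control. Opposite-strand genes cover 28.6% of the exon bases of PLA2G6 and 23.1% of those of ALOX12B, and the counting strand is not given.

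PLA2G4A, the cytosolic phospholipase A2 that prefers arachidonate, did not pass. Its counts were 721, 753 and 672 in controls and 1020, 645 and 798 with ApoD overexpression, and ApoD overexpression replicate 2 lay within the range of the controls once scaled to CPM. The log2 fold change was 0.31, with a 95% interval of 0.01 to 0.61 before adjustment (edgeR adjusted p = 0.0849), and 0.41 without ApoD overexpression replicate 2 (edgeR adjusted p = 0.0281). PLA2G4A made up 22.6% ± 0.977 of the summed phospholipase FPKM in controls and 34.1% ± 3.05 in the ApoD overexpression libraries (SD, n = 3), while PLAAT3 made up 65.3% ± 1.30 and 56.4% ± 2.33. PLA2G4B and PLA2G4C, both relatives of PLA2G4A, stayed at 2 to 33 counts per library and did not pass, with log2 fold changes of −1.58 ± 0.64 and 1.24 ± 0.67 (SE). PLA2G4B shares 87.8% of its annotated exon bases with the readthrough gene JMJD7-PLA2G4B, so its counts are uncertain. PLA2G10, a secreted enzyme, had 1 count in all 6 libraries together.

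Both cyclooxygenases fell. PTGS1, the constitutive form, had 3599, 5426 and 5221 counts in controls and 1152, 965 and 1043 with ApoD overexpression, so that the highest ApoD overexpression library lay far below the lowest control. The mean level was 116 ± 23.3 CPM in controls and 27.9 ± 1.19 CPM in the other group (SD, n = 3). This was a fall of 4.16-fold (log2 fold change −2.06 ± 0.14 SE, edgeR adjusted p = 1.08e-06). PTGS2, the inducible form, had 186, 314 and 344 counts in controls and 114, 130 and 89 with ApoD overexpression, and fell 2.32-fold (log2 fold change −1.21 ± 0.26 SE, edgeR adjusted p = 0.00205). On the FPKM scale PTGS1 was the larger of the pair in every library, with 88.8% ± 1.21 of their sum in controls and 81.5% ± 3.58 in the ApoD overexpression libraries (SD, n = 3).

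The 250 bases before 1 annotated start of each gene are shown because the pair is often contrasted by its promoters, PTGS2 being the inducible one. PTGS1 had 2 start entries, of which the first listed was used, and PTGS2 had 1. They come from RefSeq on GRCh38.p14, at chr9:122370283-122370532, plus strand, and chr1:186680424-186680673, minus strand. Capitals mark matches on either strand to the TATA box letters TATAAA, to the GC box letters GGGCGG, to the CCAAT box, or to the AP-1 letters TGANTCA.
PTGS1: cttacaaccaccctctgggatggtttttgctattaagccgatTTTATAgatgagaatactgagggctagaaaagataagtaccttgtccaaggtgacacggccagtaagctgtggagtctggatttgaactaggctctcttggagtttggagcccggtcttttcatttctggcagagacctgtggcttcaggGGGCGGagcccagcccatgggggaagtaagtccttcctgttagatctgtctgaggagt
PTGS2: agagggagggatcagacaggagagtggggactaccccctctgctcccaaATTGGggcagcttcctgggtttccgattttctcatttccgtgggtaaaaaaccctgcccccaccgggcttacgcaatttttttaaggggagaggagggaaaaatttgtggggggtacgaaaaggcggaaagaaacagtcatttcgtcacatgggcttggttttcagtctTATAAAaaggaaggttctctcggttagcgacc
Both windows hold TATAAA, in PTGS2 close to the start and in PTGS1, on the other strand, more than 200 bases before it. Of 34788 such windows over all genes 10.8% hold that motif. The PTGS1 window also holds a GC box, found in 42.6% of all windows, and the PTGS2 window a CCAAT box, found in 32.0%. RefSeq windows were matched for 33 members, and not for PLA2G4C, PTGIS, ALOX5, ALOX15, ALOX15B, CYP4F12, EPHX2, PTGER3 or SLCO2A1. A match is a description of letters only.

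The enzymes that turn prostaglandin H2 into prostaglandin E2 did not fall. PTGES, the inducible microsomal prostaglandin E synthase, had the highest FPKM of all 40 members in both groups. Its counts were 13045, 11808 and 12404 in controls and 12870, 12813 and 12378 with ApoD overexpression, and the groups overlapped. The log2 fold change was 0.15, with a 95% interval of −0.05 to 0.34 (edgeR adjusted p = 0.186). PTGES2, a second membrane-associated synthase, rose 1.79-fold, from 5580, 4076 and 3980 counts to 7175, 7760 and 7584 (log2 fold change 0.84 ± 0.13 SE, edgeR adjusted p = 0.000334). PTGES3, the cytosolic form and also the HSP90 co-chaperone p23, rose 1.43-fold, from 14587, 14488 and 17336 counts to 22635, 19624 and 18744 (log2 fold change 0.51 ± 0.10 SE, edgeR adjusted p = 0.00125). For both of them every ApoD overexpression library lay above every control.

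PTGES accounted for 56.3% ± 0.696 of the summed FPKM of these 3 synthases in controls and 47.5% ± 0.554 with ApoD overexpression, and PTGES2 for 17.7% ± 2.71 and 24.3% ± 1.51 (SD, n = 3). The ratio of PTGES to PTGS1, in FPKM, was 20.1, 12.1 and 13.2 in controls and 61.9, 73.6 and 65.7 with ApoD overexpression. As PTGES did not pass, this ratio mainly restates the fall of PTGS1, and it leaves out PTGS2 and the other synthases.

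**Figure D2:**
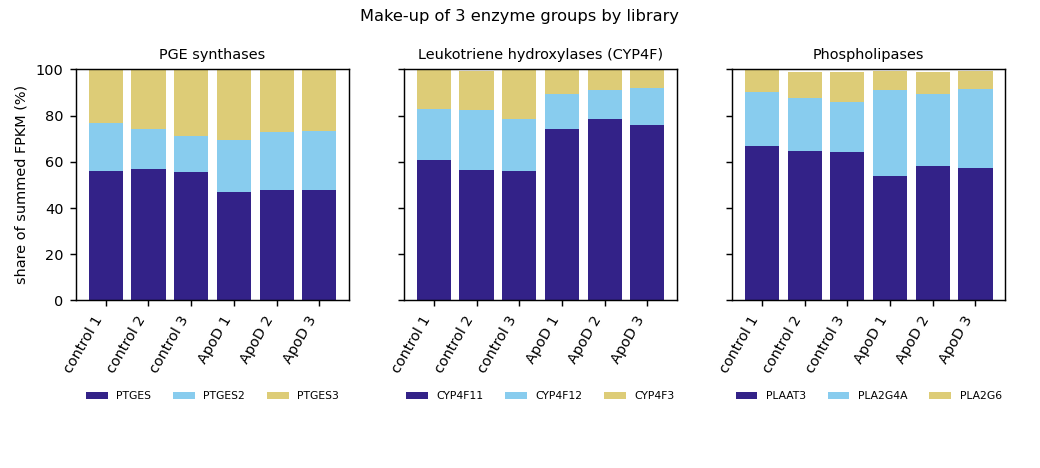
Share of the summed FPKM of the prostaglandin E synthases, the CYP4F enzymes and the phospholipases taken by each gene in each library; genes that take under about 2% are not drawn. CYP4F11 takes 56.0% to 60.8% of the CYP4F sum in controls and 74.1% to 78.7% with ApoD overexpression.

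The other prostanoid synthases were near the limit of detection. PTGIS, prostacyclin synthase, had 16, 12 and 17 counts in controls and 0, 0 and 2 with ApoD overexpression. Its ratio of control to ApoD overexpression was 20.8, with a 95% counting interval of 5.42 to 177, and its fitted change of −4.15 (edgeR adjusted p = 0.00364) became −6.86 without ApoD overexpression replicate 3, which held its only counts in that group. PTGDS, which makes prostaglandin D2 and is itself a lipocalin, had 5, 28 and 41 counts in controls and 14, 21 and 20 with ApoD overexpression. TBXAS1, thromboxane synthase, had 28, 13 and 21 against 13, 21 and 13. Neither passed, the groups overlapped, and the 95% intervals of the log2 fold change ran from −1.66 to 1.07 and from −1.40 to 0.85. An annotated gene on the same strand covers 78.6% of the exon bases of PTGDS, so its counts may be shared.

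All 3 enzymes of prostaglandin inactivation fell, where 24.6% of all genes tested were lower. HPGD oxidises prostaglandins to inactive keto forms and is the rate-setting step of their breakdown. It had 851, 1487 and 1476 counts in controls and 200, 131 and 162 with ApoD overexpression, a gap of over 4-fold between the lowest control and the highest ApoD overexpression library. The fall was 7.15-fold, a log2 fold change of −2.84 ± 0.21 (SE) at an edgeR adjusted p of 1.98e-06. It was the largest among the 25 members that reached the minimum count in every library. PTGR1 and PTGR2 reduce the keto forms further, and PTGR1 also inactivates leukotriene B4. PTGR1 went from 1954, 2220 and 2446 counts to 1328, 1077 and 1277, and PTGR2 from 464, 567 and 667 to 362, 257 and 329. Both fell 1.66-fold, with log2 fold changes of −0.73 ± 0.11 and −0.73 ± 0.16 (SE; edgeR adjusted p of 0.000160 and 0.00274), and neither overlapped between groups. Annotated genes share exon bases with PTGR2, AC005520.1 over 24.5% and ZNF410 over 5.23% on the same strand and AC005520.5 over 33.1% on the opposite one, so its counts are uncertain.

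The window before HPGD (chr4:174522489-174522738, minus strand, GRCh38.p14) is shown as that of the prostaglandin gene with the largest well-measured fall, with the same motifs in capitals.
HPGD: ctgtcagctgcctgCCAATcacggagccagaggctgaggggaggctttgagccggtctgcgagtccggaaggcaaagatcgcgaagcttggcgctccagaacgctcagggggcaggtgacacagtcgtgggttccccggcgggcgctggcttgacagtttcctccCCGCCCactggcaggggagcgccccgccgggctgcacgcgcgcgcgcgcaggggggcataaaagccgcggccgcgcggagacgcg
It holds 1 CCAAT box and 1 GC box and is 70.8% G or C, against a median of 58.0% over all windows. HPGD had 2 start entries, of which the first listed was used.

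ALOX5, ALOX5AP, LTA4H and LTC4S, of leukotriene synthesis, were called lower, but only the call of ALOX5 held under every alternative setting. ALOX5, which makes leukotriene A4, had 222, 314 and 269 counts in controls and 39, 53 and 58 with ApoD overexpression. It fell 4.92-fold (log2 fold change −2.30 ± 0.24 SE, edgeR adjusted p = 2.04e-05), and every control lay far above every ApoD overexpression library. ALOX5AP, the membrane protein that presents arachidonate to ALOX5, was sparse, at 37, 37 and 27 counts in controls and 13, 9 and 4 with ApoD overexpression. Its change of −1.83 ± 0.53 (SE) passed (edgeR adjusted p = 0.0127), but not without control replicate 2 (−1.76, edgeR adjusted p = 0.0514) or ApoD overexpression replicate 3 (−1.47, edgeR adjusted p = 0.0660), nor with the abundance trend removed (−1.12, 0.101).

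LTA4H turns leukotriene A4 into leukotriene B4 and LTC4S conjugates it with glutathione. LTA4H was the second most abundant member in controls by FPKM, at 93.9, and stood at rank 4 with ApoD overexpression, at 73.6. Its counts of 8518, 9650 and 9726 in controls and 7573, 6877 and 7426 with ApoD overexpression gave a small fall (log2 fold change −0.23 ± 0.09 SE, edgeR adjusted p = 0.0383). LTC4S had 33, 44 and 36 counts against 16, 13 and 19 (log2 fold change −1.12 ± 0.43 SE, edgeR adjusted p = 0.0467). Both calls were marginal. That of LTA4H was lost under 7 of 15 alternatives, with edgeR adjusted p up to 0.177, and that of LTC4S under 11 of 15, up to 0.405 and including every omission of a library. Beside these enzymes, best known from leukocytes, the summed leukocyte markers were 22.4 to 37.2 CPM in controls and 40.8 to 43.0 CPM with ApoD overexpression. That sum came mostly from CD68, whereas PTPRC had a few counts in controls only. The part of these markers was not tested. LTA4H exceeded ALOX5 in FPKM by 31.2 to 39.0 times in controls and by 130 to 197 times with ApoD overexpression.

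The lipoxygenases of the epidermal barrier moved in opposite directions. ALOX12B makes a hydroperoxide that ALOXE3 converts further, a pair needed for the lipid envelope of skin cells. ALOX12B fell, with 61, 78 and 117 counts in controls and 42, 19 and 9 with ApoD overexpression (log2 fold change −1.76 ± 0.48 SE, edgeR adjusted p = 0.00974), and by 2.41 without ApoD overexpression replicate 1. ALOXE3 had 27, 49 and 27 counts in controls and 83, 55 and 59 with ApoD overexpression (log2 fold change 1.04 ± 0.37 SE, edgeR adjusted p = 0.0332). Its groups did not overlap, but the call was lost under 7 of the 13 alternatives that gave it a value, among them the omission of control replicate 1 (0.91, edgeR adjusted p = 0.0747), control replicate 3 (0.90, 0.102), ApoD overexpression replicate 1 (0.90, 0.109) or replicate 2 (1.11, 0.0504). ALOX15B, a lipoxygenase of skin and macrophages, did not pass the filter, with 5, 21 and 15 counts in controls and 0 in each ApoD overexpression library. With a floor of 3 counts over that group, and the control counts taken as exact, it was 12.6-fold lower. ALOX12, the platelet form, had 5 counts over the controls and 13 over the ApoD overexpression libraries, and ALOX15 had 4 and 0.

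**Figure D3:**
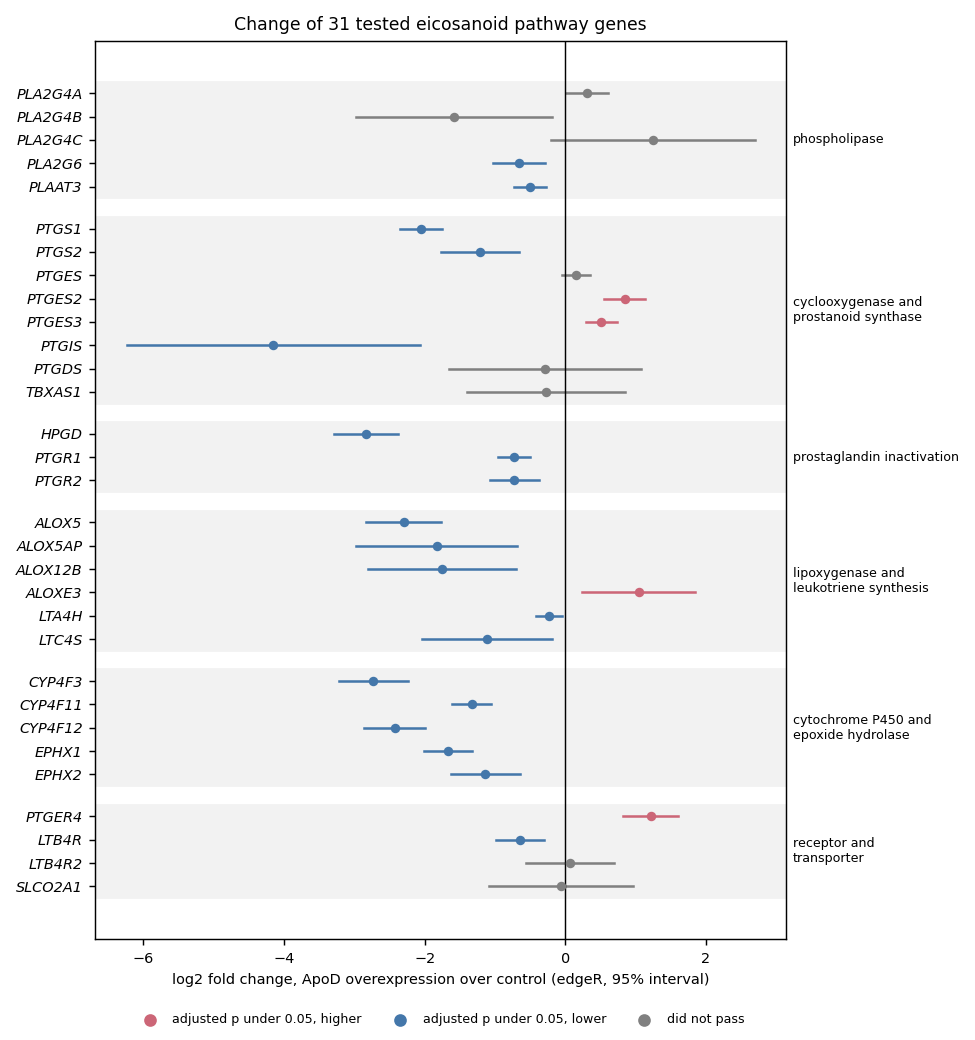
Log2 fold change of the 31 tested members, ApoD overexpression over control, with 95% intervals from edgeR before adjustment. Members of the prostaglandin inactivation and P450 groups all lie to the left of 0, whereas PTGES2, PTGES3, ALOXE3 and PTGER4 lie to the right.

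All 5 tested genes of the P450 and epoxide hydrolase group fell by more than 2-fold, as did 1686 of the 14629 genes tested. CYP4F3 inactivates leukotriene B4 by omega-hydroxylation. It had 457, 606 and 759 counts in controls and 111, 72 and 70 with ApoD overexpression, and fell 6.64-fold (log2 fold change −2.73 ± 0.22 SE, edgeR adjusted p = 3.95e-06). CYP4F12, a relative with broader substrates, went from 496, 759 and 685 counts to 130, 83 and 120, a fall of 5.39-fold (log2 fold change −2.43 ± 0.20 SE, edgeR adjusted p = 3.83e-06). CYP4F11, which hydroxylates long-chain fatty acids, went from 842, 1027 and 1042 to 393, 326 and 346, a fall of 2.52-fold (log2 fold change −1.33 ± 0.13 SE, edgeR adjusted p = 9.25e-06). None of the 3 overlapped between groups. CYP4F genes are close relatives, so reads may be shared between them.

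CYP4F11 therefore took more of what was left, 57.8% ± 2.65 of the summed CYP4F FPKM in controls and 76.2% ± 2.31 with ApoD overexpression, and CYP4F3 less, 18.5% ± 2.27 and 9.24% ± 1.46 (SD, n = 3). The shares of each gene did not overlap between groups, and were not tested. CYP4F2, another relative known from liver, had 1, 8 and 4 counts in controls and 0 in each ApoD overexpression library. By the same floor, with the control counts taken as exact, it was 4.0-fold lower. CYP2J2, which makes arachidonate epoxides, had 10, 0 and 1 counts against 2, 9 and 0, a control to ApoD overexpression ratio of 0.923 (95% counting interval 0.363 to 2.35).

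The window before CYP4F3 (chr19:15641062-15641311, plus strand, GRCh38.p14) is shown because this gene had the largest fall of the group.
CYP4F3: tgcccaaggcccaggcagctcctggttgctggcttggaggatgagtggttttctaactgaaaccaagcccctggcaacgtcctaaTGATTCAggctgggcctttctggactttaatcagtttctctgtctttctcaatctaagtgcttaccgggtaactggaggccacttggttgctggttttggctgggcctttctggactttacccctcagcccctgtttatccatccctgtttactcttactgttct
It holds 1 AP-1 site, TGANTCA, which 6.59% of all windows and, of the 33 member windows, also that of TBXAS1 hold. No GC, CCAAT or TATA box letters were found in it.

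The epoxide hydrolases turn fatty acid epoxides into diols, EPHX2 being the soluble form that acts on arachidonate epoxides and EPHX1 the microsomal form best known for foreign compounds. EPHX1 had 1706, 2628 and 2583 counts in controls and 780, 574 and 654 with ApoD overexpression, and fell 3.18-fold (log2 fold change −1.67 ± 0.16 SE, edgeR adjusted p = 8.96e-06). EPHX2 had 183, 295 and 297 against 103, 101 and 120 and fell 2.20-fold (log2 fold change −1.14 ± 0.22 SE, edgeR adjusted p = 0.00137). In both, control replicate 1 lay between the other controls and the ApoD overexpression libraries.

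That place of control replicate 1 recurred across the members. It had the lowest level of the 3 controls in 16 of the 19 members that fell (84.2%), among them PTGS1, HPGD, ALOX5, CYP4F3 and EPHX1, and in 65.5% of all 3601 genes called lower. Without this library 20 members were lower and 3 higher.

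Among receptors, PTGER4 rose. It encodes EP4, a prostaglandin E2 receptor that raises cyclic AMP, and had 198, 140 and 156 counts in controls and 384, 306 and 369 with ApoD overexpression, with no overlap. Mean levels of 4.03 ± 0.779 and 9.33 ± 0.623 CPM (SD, n = 3) gave a rise of 2.32-fold (log2 fold change 1.21 ± 0.18 SE, edgeR adjusted p = 0.000214). PTGER2, which encodes EP2 and also raises cyclic AMP, stayed below the filter with 16, 9 and 7 counts against 22, 4 and 5, a ratio of control to ApoD overexpression of 0.952 (95% counting interval 0.563 to 1.61). PTGER1, for EP1, had 4 counts, all in control replicate 3. PTGER4 made up 86.9% to 90.2% of the FPKM of these 3 receptors in controls and 91.2% to 97.8% with ApoD overexpression. PTGER4 stood at 0.243, 0.0983 and 0.110 of the FPKM of HPGD in controls, and at 2.01, 2.44 and 2.38 times it with ApoD overexpression.

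The window before PTGER4 (chr5:40679665-40679914, plus strand, GRCh38.p14) is shown as that of the receptor that rose.
PTGER4: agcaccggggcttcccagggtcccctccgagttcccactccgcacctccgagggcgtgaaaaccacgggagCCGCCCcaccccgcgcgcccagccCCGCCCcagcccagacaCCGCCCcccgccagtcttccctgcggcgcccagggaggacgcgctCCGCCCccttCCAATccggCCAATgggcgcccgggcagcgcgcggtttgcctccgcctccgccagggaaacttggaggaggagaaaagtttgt
It holds 4 GC boxes and 2 CCAAT boxes, the latter side by side, and is 72.8% G or C.

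The leukotriene B4 receptors differed from each other in outcome. LTB4R, the high-affinity receptor BLT1, had 508, 574 and 674 counts in controls and 394, 268 and 379 with ApoD overexpression, and fell 1.56-fold (log2 fold change −0.64 ± 0.16 SE, edgeR adjusted p = 0.00493). LTB4R2, the low-affinity receptor BLT2, had 62, 85 and 81 against 63, 67 and 90 and did not pass (log2 fold change 0.07, 95% interval −0.56 to 0.69, edgeR adjusted p = 0.865). The difference between the 2 genes was not tested. Their exons overlap over 9.87% of LTB4R2, and CIDEB covers 29.6% of it on the opposite strand. SLCO2A1, the prostaglandin uptake transporter, had 18, 87 and 78 counts in controls and 64, 51 and 46 with ApoD overexpression, so that control replicate 1 lay below and the other controls above the other group (log2 fold change −0.06, 95% interval −1.09 to 0.96). PTGFR, the prostaglandin F receptor, had 9 counts over the controls and 16 over the ApoD overexpression libraries.

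A wider list held 88 further genes of arachidonate uptake, release and re-esterification, eicosanoid enzymes and receptors, of which 71 had a row and 54 were tested. Of these 54, 23 were lower and 6 higher, whereas 24.6% of all genes tested were lower and 24.2% higher. The called share was 53.7%, against 48.8% of all genes tested, so the lists differed more in direction than in that share. The median log2 fold change of the 54 was −0.18, against −0.02 for all genes tested. Other phospholipases were lower in 6 of 7 tested, against 24.6% of all genes tested. PLA2G4F (48, 70 and 79 counts against 8, 10 and 15) had a log2 fold change of −2.44 ± 0.43 (SE). It reached the minimum count in 3 control but only 2 ApoD overexpression libraries. Of the 6 that reached it in every library 5 were lower. PLA2G4D (120, 192 and 139 against 47, 15 and 27) had a log2 fold change of −2.23 ± 0.37 (SE). PLAAT2, a relative of PLAAT3, fell by 1.60 ± 0.28. Of 20 genes that handle arachidonate between acyl-CoA, phospholipid and monoacylglycerol 7 were lower and 2 higher. Their called share of 45.0% was near that of all genes, but more of the calls were lower. FABP5, a fatty acid binding protein of epithelia, rose from 875, 797 and 869 counts to 1823, 2235 and 1925 (log2 fold change 1.36 ± 0.13 SE, edgeR adjusted p = 8.17e-06).

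AKR1C3, which makes prostaglandin F from prostaglandins D2 and H2, had 43.8 ± 8.65 CPM in controls and 9.21 ± 1.55 CPM in the other group (SD, n = 3). It fell by 2.25 ± 0.16 (SE) on the log2 scale, though near-identical AKR1C genes can share its reads. Of the 5 further prostanoid enzymes tested, AKR1C3 included, 2 were lower and 1, CBR1, was higher by 0.28 ± 0.10. DPEP1, a dipeptidase that trims leukotriene D4, fell from 28, 94 and 91 counts to 7, 1 and 1 (log2 fold change −4.40 ± 0.72 SE, and −5.82 without ApoD overexpression replicate 1), 1 of 3 lower genes among the 6 further leukotriene enzymes tested. CYP1A1, a P450 induced through the aryl hydrocarbon receptor, rose from 75, 47 and 56 to 150, 219 and 208 counts (log2 fold change 1.82 ± 0.27 SE, edgeR adjusted p = 0.000214), while CYP1B1 and CYP2S1, of the 4 others tested, were lower. The annexin ANXA5 and the leukotriene C4 exporter ABCC1 were higher by 0.32 ± 0.10 and 0.26 ± 0.10. ANXA5, CBR1 and ABCC1 no longer passed when library totals set the scale (edgeR adjusted p of 0.0716, 0.163 and 0.202) or when the abundance trend was removed. Of 8 receptors, transporters and binding partners 2 were lower and 1 higher. Beside all these counts, 24.6% of all genes tested were lower and 24.2% higher.

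**Figure D4:**
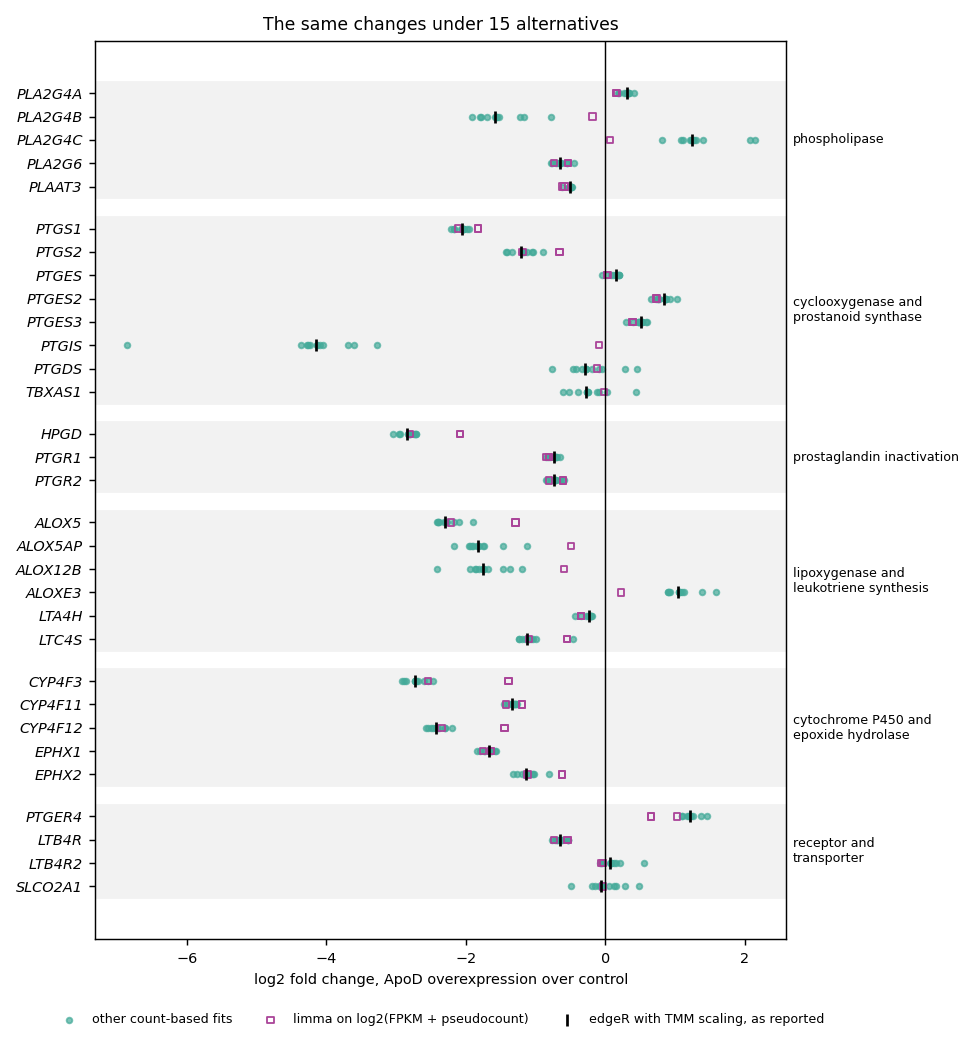
Log2 fold change of each tested member as reported (black bar), under other count-based fits (dots) and under limma on FPKM (squares). Sign changes appear only for members that did not pass, namely PTGES, PTGDS, TBXAS1, LTB4R2 and SLCO2A1, and FPKM values with a pseudocount of 1 lie nearer to 0 for sparse genes such as PTGIS.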

How the data were processed

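RNA was sequenced from 3 control and 3 ApoD overexpression libraries of the 83 cell line, with a SMARTER mRNA-Seq kit per the labels. The authors deposited read counts per gene symbol and FPKM values, per the file headers. Which aligner, counter and genome build were used, and whether counting used strand, is not given in the sources used here. Each FPKM value above 0 equals the deposited count divided by the library total and a whole-number gene length.

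Over the whole table, counts went into edgeR 4.0.16 under R 4.3.3 (glmQLFit and glmQLFTest), after filterByExpr with a minimum count of 10 and TMM scaling. Tests were two-sided, with Benjamini-Hochberg adjustment over all 14629 genes tested and a threshold of 0.05. CPM are counts per 1000000 of the TMM-scaled total. A standard error is the log2 fold change over the square root of F. Counting intervals (95%, exact binomial) cover counting error only. The floor of 3 counts per group stands in for a group with 0 counts and takes the counts of the other group as exact. The fit was first tested on simulated data in which few genes were changed. That check does not cover changes as widespread as those here.

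The rule for named genes took APOD, all members present, and the 5 largest rises and falls of the wider list. Marker lists covered epithelial, leukocyte, mast cell and platelet, fibroblast and endothelial genes. PTGDR2 and single markers were chosen after their values were seen. Members and lists were chosen with earlier results of these data known. Shared exons were read from GENCODE 29, by name only. Alternatives were DESeq2 1.42.0 (size factors, Wald test), library totals, removal of each library's abundance trend, no filter, a replicate block, each library left out, and limma 3.58.1 on log2(FPKM + 1) or log2(FPKM + 0.1).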

Additional observations from a re-analysis of the deposited data

How the results depend on the processing

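Of the 23 called members, 19 kept their direction and side of the threshold under every alternative that gave them a value, and the exceptions were ALOX5AP, ALOXE3, LTA4H and LTC4S. PLA2G4A, PLA2G4B and PLA2G4C, which did not pass, each passed under 1 or 2 alternatives, of 15 that gave a value for PLA2G4A and 13 for the others. Over all alternatives 16 to 20 members were lower and 3 to 5 higher. With the replicate number as a block 17 were lower and 3 higher, and of the wider list 20 and 3. Same-numbered libraries did not deviate together (r = −0.176, −0.0285 and −0.0986), so the numbers were not taken as pairs. The count of higher genes on the wider list, 6 as reported, was 2 with library totals, 2 on filtered FPKM with either pseudocount, 3 on unfiltered FPKM and 2 to 6 with 1 library left out (2 without control replicate 2, 3 without ApoD overexpression replicate 2 or 3). The cause was not tested. The median of the members was −0.53 with the abundance trend removed, and −0.15 on unfiltered log2(FPKM + 1), where 40 members had a value. Library totals moved the median of all genes to −0.13 and called 2581 higher and 4432 lower, against 3539 and 3601. Depth limits the members under about 30 counts per library, such as PTGIS, PLA2G4B and PTGDS.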

Other observations

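PTGDR2, a prostaglandin D2 receptor best known from type 2 immune cells, was picked out after its values were seen and lay below the low-count filter. It had 1, 0 and 0 counts in controls and 9, 15 and 7 with ApoD overexpression. The ApoD overexpression to control ratio was 33.6 (95% counting interval 5.60 to 1369). CYSLTR1, a receptor for cysteinyl leukotrienes, went the other way at fewer counts, with 1, 1 and 5 in controls and 0 in each ApoD overexpression library. PTGIR, the prostacyclin receptor, had 0, 0 and 16 counts against 2, 8 and 0, so its groups overlapped. None of the 3 was tested.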
